A study of Homo sapiens with 4 samples.

Results

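The genes described here build and regulate the lateral and apical contacts of epithelial cells: 13 tight junction genes, 8 genes of desmosomes and the cornified plaque, 6 keratin genes, 7 polarity genes, 3 genes of membrane-anchored proteolysis, 6 epithelial transcription and splicing regulators, and 3 genes of polarised traffic and lipid synthesis. They were taken by name, as every probe set whose only annotated gene symbol was on a list of 46 symbols. Of the 46, 44 had such a probe set (97 probe sets in all, of 41091 with 1 gene symbol), and 43 were bright enough to be tested, of 12389 genes tested among 19775. F11R and ESRP2 had no probe set of their own symbol alone and are not analysed here.

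The RNA came from HCT116, an established human colorectal cancer line with epithelial features. The cells had received a control siRNA (2 arrays) or TET1 siRNA (2 arrays), delivered with the same lipid reagent to cells grown in the same medium, and each sample was read on 1 Affymetrix array. TET1 encodes an enzyme that oxidises methylated cytosine, and the comparison asks which genes respond when its transcript is reduced. Sequences, doses and harvest time of the siRNA treatments were not stated in the labels, which name 1 TET1 siRNA group, so loss of TET1 and any other effect of that siRNA cannot be told apart.

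Tight junctions seal the space between epithelial cells with strands of claudins and occludin, which are tied to actin through scaffold proteins such as ZO-1. Desmosomes bind neighbouring cells through the cadherins desmoglein and desmocollin, which plakophilins and desmoplakin anchor to keratin filaments. The Par, Crumbs and Scribble complexes divide the membrane into apical and basolateral domains, and Grainyhead-like, OVOL and ELF3 transcription factors maintain the epithelial programme that these structures belong to.

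Signals are linear values in arbitrary units, scaled by the authors to the same trimmed mean (100.01) on each array, and the array medians ran from 13.9 to 15.5. Differences below are TET1 siRNA minus control siRNA on the log2(signal + 16) scale, which understates changes of dim genes. A gene rose or fell where limma's adjusted p (Benjamini-Hochberg over all genes tested) was below 0.05. TET1 read 58.1 and 59.6 with control siRNA, against 14.6 and 15 with TET1 siRNA, a log2 difference of -1.28 (SE 0.20, limma adjusted p = 0.000969). Its dimmer probe set read 18.2 and 35.5 against 6 and 8.9. That one was also lower but did not pass by itself (log2 difference -0.84, limma adjusted p = 0.0509). Epithelial markers checked the label: EPCAM (2869.5 and 2742 with control siRNA), KRT8, KRT18 and CDH1 were well above the filter on dim probe sets (a signal of about 13.1). VIL1 and CEACAM5 lay just above it, and the intestinal markers CDX1, CDX2, GPA33 and LGR5 lay below. Of 7 stratified squamous markers on the array 2 passed the filter (summed signal 99.2 to 111.3 with control siRNA, against 98.2 to 104.7 with TET1 siRNA). Of 5 endothelial markers 1 passed it (30.9 to 45.5 and 31.1 to 38.8), of 5 leukocyte markers 1 (30.3 to 55.8 and 43.6 to 50.3), and of 6 fibroblast markers 3 (312.4 to 353.6 and 386 to 491.6, mostly COL1A1, which rose by 0.47, limma adjusted p = 0.0242). No marker was listed at 0. The fibroblast sum moved with the groups through COL1A1. The other fibroblast markers above the filter, COL1A2 and DCN, did not rise (means 15.95 and 14.4 with control siRNA, against 11.7 and 12.2 with TET1 siRNA). The part of that sum in the results was not tested.

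Of the 43 members tested, 11 rose (25.6%, against 11.2% of all genes tested) and 6 fell (14%, against 10.6%), while 26 did not pass. Their median log2 difference was 0.15, and that of all genes tested was 0.0098. The members were chosen with earlier results of these data known, so these shares are no test of an excess. Bright genes also passed more often. With a filter at the upper quartile of probe sets, 1411 of 7816 genes rose and 1257 fell. Of the 36 members that this filter kept, 11 rose and 8 fell. Both TET1 siRNA arrays lay above both control arrays in 21 members and below both in 15, against 30.9% and 28.2% of all genes tested. All 17 members past the threshold had groups that did not overlap. The rises were OCLN, TJP1, DSC2, PKP2, PPL, KRT8, PARD6B, ST14, SPINT1, RAB25 and AP1M2, and the falls were DSG2, PKP3, PKP4, PRKCI, ELF3 and CDS1. Changes were modest, with 13 of the 17 under 1.5-fold on the log2(signal + 16) scale, and the classes did not share a direction.

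**Figure D1:**
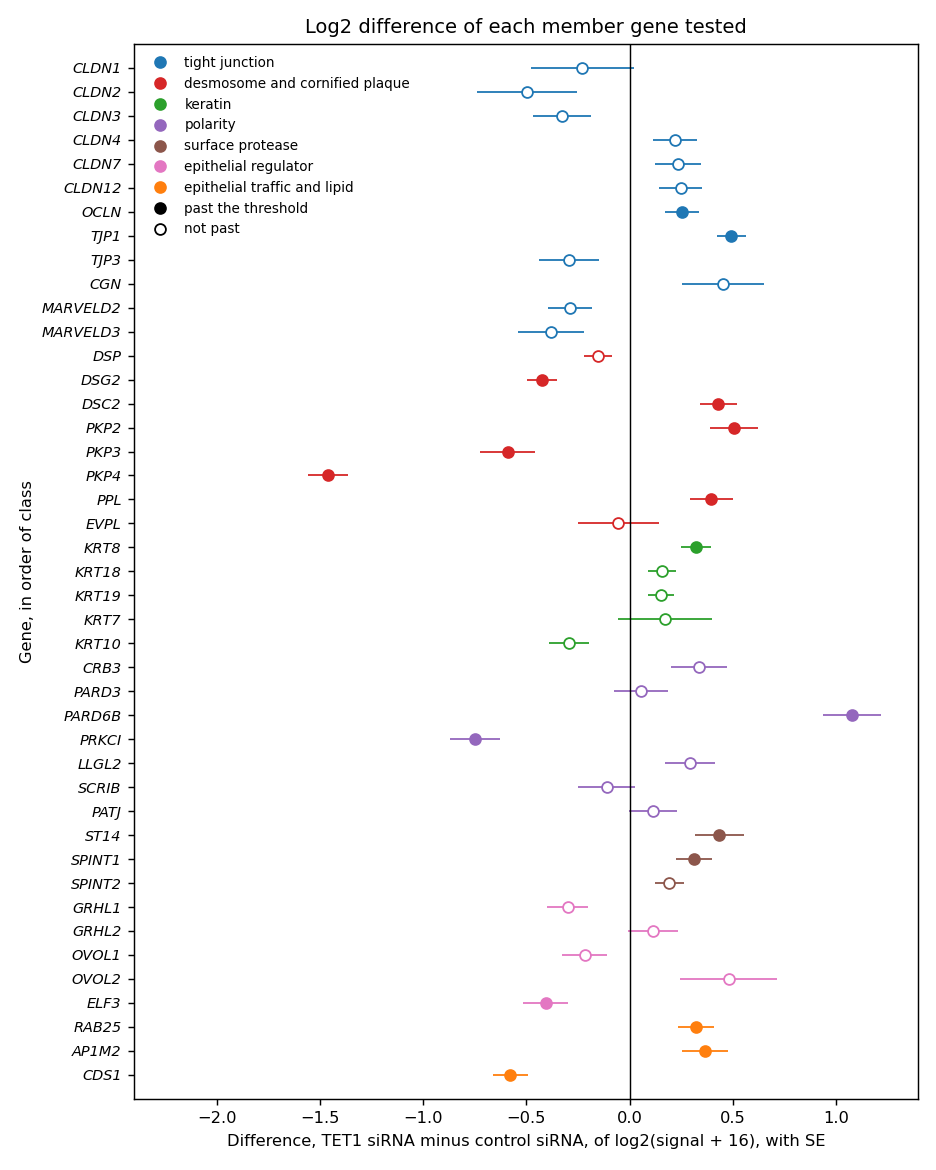
Log2 difference (TET1 siRNA minus control siRNA, of log2(signal + 16)) of the 43 members tested, by class; points are gene values from limma, bars are 1 SE on either side, and filled points passed the threshold. PKP4 (-1.46) and PARD6B (1.08) lie farthest from 0, and filled points of the desmosome class lie on both sides.

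The counts rest on few arrays. An exact permutation of 2 against 2 arrays cannot give a two-sided p below 0.33, so every adjusted p comes from limma, which shares variance between genes: without that sharing 0 of 12389 genes passed (2679 at unadjusted p below 0.05, among them 12 members, 6 with positive and 6 with negative differences), and without its trend of variance on signal 1 rose and 3 fell. The count of rises went from 11 to 6 without control siRNA replicate 2, to 7 without TET1 siRNA replicate 1 and to 5 without TET1 siRNA replicate 2. TJP1, DSG2, DSC2, PKP4, PARD6B, PRKCI and CDS1, 7 of the 17, passed whichever array was left out. Without the variance trend the 4 that passed were PKP4, PARD6B, PRKCI and CDS1. With no filter on dim genes 7 calls ended (OCLN, PPL, KRT8, ST14, ELF3, RAB25 and AP1M2). Without _x_at and _s_at probe sets, 14 of the 17 had a value and 12 of those passed. OCLN and ELF3 did not pass, and PKP2, PKP3 and KRT8 had no other type of probe set.

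**Figure D2:**
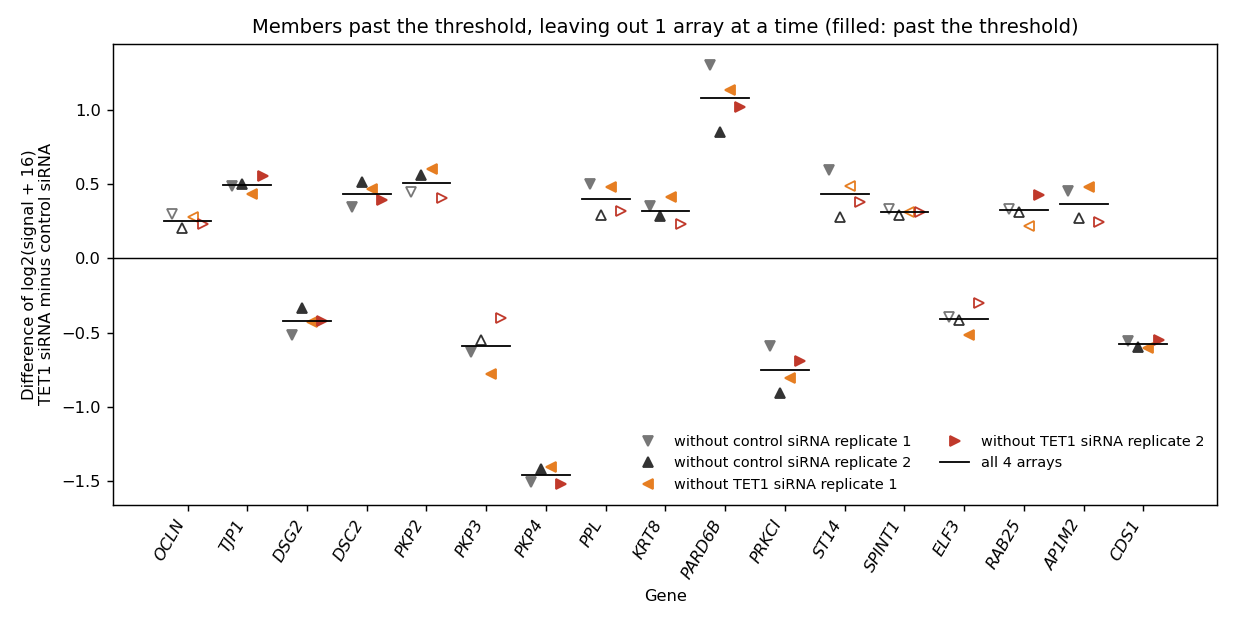
Log2 difference of the 17 members past the threshold with all 4 arrays (black line) and with each array left out in turn (symbols, filled where the limma adjusted p stayed below 0.05). Signs stayed the same in every fit shown, and OCLN and SPINT1 have no filled symbol.

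The promoters of 5 of these 7 genes are shown, because TET1 acts on cytosine in CpG dinucleotides and these genes changed in opposite directions. PARD6B had no matched promoter, and the CDS1 promoter is given below by its counts only. Each sequence is the 250 bases before the most upstream RefSeq start in GRCh38.p14, 5′ to 3′ on the gene's strand, with every CpG in capitals. They lie at chr15:29969050-29969299, minus strand (TJP1), chr2:158456702-158456951, plus strand (PKP4), chr18:31497927-31498176, plus strand (DSG2), chr18:31102422-31102671, minus strand (DSC2) and chr3:170222174-170222423, plus strand (PRKCI).
TJP1: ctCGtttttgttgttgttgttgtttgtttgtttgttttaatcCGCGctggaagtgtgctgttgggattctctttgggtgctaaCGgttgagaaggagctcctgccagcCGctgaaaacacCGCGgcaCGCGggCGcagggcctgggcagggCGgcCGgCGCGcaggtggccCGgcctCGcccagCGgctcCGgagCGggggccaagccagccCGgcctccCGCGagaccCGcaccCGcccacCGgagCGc
PKP4: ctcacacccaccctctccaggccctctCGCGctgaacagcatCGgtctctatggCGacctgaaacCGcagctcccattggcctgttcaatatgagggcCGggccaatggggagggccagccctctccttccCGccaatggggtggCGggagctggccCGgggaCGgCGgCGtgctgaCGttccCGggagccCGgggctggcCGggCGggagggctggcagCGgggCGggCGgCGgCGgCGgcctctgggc
DSG2: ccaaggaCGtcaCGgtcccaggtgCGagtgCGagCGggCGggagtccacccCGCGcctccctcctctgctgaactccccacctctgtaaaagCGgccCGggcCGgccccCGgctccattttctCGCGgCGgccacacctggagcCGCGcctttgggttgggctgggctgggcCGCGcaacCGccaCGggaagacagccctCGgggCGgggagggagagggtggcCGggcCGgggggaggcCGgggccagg
DSC2: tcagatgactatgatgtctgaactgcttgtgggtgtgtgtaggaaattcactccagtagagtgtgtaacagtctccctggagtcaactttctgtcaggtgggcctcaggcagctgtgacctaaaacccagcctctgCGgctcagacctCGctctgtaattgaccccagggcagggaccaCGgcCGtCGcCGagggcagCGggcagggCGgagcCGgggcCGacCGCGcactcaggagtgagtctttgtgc
PRKCI: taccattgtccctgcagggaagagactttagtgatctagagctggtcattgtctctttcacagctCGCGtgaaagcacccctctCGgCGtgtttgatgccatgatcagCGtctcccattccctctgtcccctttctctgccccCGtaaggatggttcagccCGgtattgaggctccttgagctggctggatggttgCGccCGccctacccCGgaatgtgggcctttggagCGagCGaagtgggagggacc

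The TJP1 window, of a gene that rose, and the DSG2 window, of a gene that fell, each held 26 CpGs. PKP4 held 23, and DSC2 and PRKCI held 12 each, although DSC2 rose and PRKCI fell. The window of CDS1, which fell, held 29. Across the 26 members with a promoter in the table, the count ran from 0 (KRT10 and CLDN2) to 45 (GRHL1) with a median of 19. The median was 10 over all 27305 genes with a promoter, which were not limited to genes tested on these arrays and so are an unlike background. The median was 12 over the 7 of these that rose and 23 over the 5 that fell, with ranges of 1 to 35 and 4 to 29 that overlapped. The hexamer CACCTG, an E-box that SNAI and ZEB repressors can bind, was searched on both strands. It was found in 11 of the 26 members (42.3%) and in 17.5% of the same 27305 genes. Among the members it was in 5 of the 7 that rose, 3 of the 5 that fell and 3 of the 14 that did not pass. TJP1, DSG2, DSC2 and CDS1 hold it, and PKP4 and PRKCI do not. The Grainyhead-like core AACNNGTT, which is its own reverse complement, was in 1 of 26 members (3.85%) and in 3.01% of the 27305 genes. TJP1 had 4 annotated starts, and PKP4 and DSC2 had 2 each, of which only the most upstream was used. These are letters in a window and not measured binding, methylation or start site use, none of which was measured on these arrays.

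Among tight junction genes, 2 of 12 rose (16.7%, against 11.2% of all genes tested) and none fell (10.6% of all genes tested did). The other 10 did not pass, and the median log2 difference of the class was -0.0044. TJP1 encodes ZO-1, the scaffold that links strand proteins to actin. Its signals were 1268.5 and 1278.9 with control siRNA, against 1876.8 and 1723.8 with TET1 siRNA. The TET1 siRNA pair lay clearly above the control pair. The means were 1274 ± 7.35 and 1800 ± 108 (SD, n = 2), a log2 difference of 0.49 (SE 0.071, limma adjusted p = 0.000576). The other TJP1 probe set rose as well when tested by itself (246.8 and 236.7 against 381 and 352.2, log2 difference 0.57, limma adjusted p = 0.00297). TJP3, which encodes the related scaffold ZO-3, read 107.1 and 97 against 83.7 and 76.9. Its groups did not overlap and it was lower with TET1 siRNA, but it did not pass (log2 difference -0.29, SE 0.15, limma adjusted p = 0.18).

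OCLN encodes occludin, a strand protein with 4 tested probe sets that disagreed. By its brightest one it read 564 and 527.6 with control siRNA, against 642.2 and 664.6 with TET1 siRNA. Those groups did not overlap, and the gene rose by 0.25 (SE 0.082, limma adjusted p = 0.0471), close to the threshold. It did not pass when any 1 array was left out (limma adjusted p 0.0636 to 0.199). Another OCLN probe set read 95.4 and 103.2 against 77.1 and 73.5, the opposite direction without passing (log2 difference -0.34, limma adjusted p = 0.145 by itself). Averaged over all OCLN probe sets, the log2 difference was -0.0002. The tricellular junction gene MARVELD2 (tricellulin) read 259.5 and 250.8 against 217.8 and 195.3. Its TET1 siRNA arrays were both lower, but it did not pass (log2 difference -0.29, limma adjusted p = 0.0805). The related gene MARVELD3 read 92.7 and 79.6 against 58.1 and 66.5, also without overlap and also not past the threshold (log2 difference -0.38, SE 0.16, limma adjusted p = 0.114). CGN, which encodes the scaffold cingulin, read 65.6 and 39.5 against 79.6 and 73. The control arrays lay far apart, and the difference of 0.45 (SE 0.20, limma adjusted p = 0.133) did not pass, although it did without control siRNA replicate 1 (0.73, adjusted p = 0.0286); without control siRNA replicate 2 it was 0.18.

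No claudin gene passed, of 6 tested. CLDN7, which encodes a claudin common in colonic epithelium, read 1071.4 and 834.1 with control siRNA, against 1188 and 1048.4 with TET1 siRNA. Its groups overlapped, and it did not pass (log2 difference 0.24, SE 0.11, limma adjusted p = 0.155). The CLDN7 value rested on the control arrays: it passed without control siRNA replicate 1 (0.41, adjusted p = 0.0179) and was 0.06 without control siRNA replicate 2. CLDN4, a claudin gene of tight epithelia, read 265.1 and 286.4 against 347.9 and 300.5 (log2 difference 0.22), and CLDN12 read 383.4 and 381.5 against 507.3 and 411.4 (0.25). In both the TET1 siRNA arrays were higher without overlap, but within a spread that kept limma's adjusted p at 0.173 and 0.124. CLDN12 passed without TET1 siRNA replicate 2 (0.39, adjusted p = 0.0408) and was 0.10 without TET1 siRNA replicate 1. CLDN3 read 187.5 and 146.3 against 133.5 and 124.3 by its brighter probe set (log2 difference -0.33, limma adjusted p = 0.119), while the other one differed by 0.30 (log2, adjusted p = 0.394). CLDN2, which encodes a pore-forming claudin, was dim, at 20.4 and 22.8 against 11.8 and 9.5, so its lower values with TET1 siRNA (log2 difference -0.50, SE 0.24, limma adjusted p = 0.179) lay near the filter. CLDN1 was dim as well, at 22.2 and 34.4 against 28 and 15.9, with groups that overlapped.

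Genes of desmosomes and the cornified plaque held the largest change among the members. Of these 8, 6 passed the threshold, 3 in each direction. That is 37.5% each way, against 11.2% of all genes tested that rose and 10.6% that fell. PKP4 encodes plakophilin 4 (p0071), an armadillo-repeat protein of desmosomes and adherens junctions. It read 510.6 and 541.5 with control siRNA, against 173.2 and 188.4 with TET1 siRNA. Both TET1 siRNA arrays were far below both controls, at 34.4% of the control mean, for a log2 difference of -1.46 (SE 0.098, limma adjusted p = 4.27e-06). Its other 2 tested probe sets fell too, with log2 differences of -1.45 (limma adjusted p = 0.000444) and -1.16 (adjusted p = 0.000154), each tested by itself. The 2 remaining PKP4 probe sets were below the filter, with no signal above 12.3.

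The other plakophilin genes did not move with PKP4 as a group. PKP3 encodes a plakophilin found broadly in simple and stratified epithelia. It read 260 and 275.6 with control siRNA, against 199.2 and 149.1 with TET1 siRNA. The TET1 siRNA arrays were both lower but differed from each other, and the gene fell by 0.59 (SE 0.13, limma adjusted p = 0.00861). Its dimmer probe set differed by -0.18 (log2, adjusted p = 0.521). PKP2, whose product joins desmoplakin to desmosomal cadherins in simple epithelia and heart, read 161.9 and 176.7 against 229.5 and 265.4. Both values were higher with TET1 siRNA, and it rose by 0.51 (SE 0.12, limma adjusted p = 0.00964). The other PKP2 probe set differed by 0.22 (log2, adjusted p = 0.524), and the average of both did not pass (0.36, limma adjusted p = 0.0654). PKP2 did not pass without control siRNA replicate 1 (adjusted p = 0.0511) or without TET1 siRNA replicate 2 (0.0963), and PKP3 did not without control siRNA replicate 2 (0.0549) or TET1 siRNA replicate 2 (0.0745).

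The desmosomal cadherin genes among the members, DSG2 and DSC2, both lie on chromosome 18 and changed in opposite directions. DSG2 encodes desmoglein 2, the main desmoglein of simple epithelia. Its signals were 2640.2 and 2985.8 with control siRNA, against 2090.6 and 2083.3 with TET1 siRNA. The groups did not overlap, and its level fell by 0.43 (SE 0.072, limma adjusted p = 0.00162). The other DSG2 probe set read 909.4 and 954.8 against 659.8 and 622.7 (log2 difference -0.53, limma adjusted p = 0.00128 by itself). DSC2 encodes desmocollin 2, its partner cadherin. It read 463.4 and 523.7 with control siRNA, against 650.9 and 688.5 with TET1 siRNA. Again the TET1 siRNA values were higher, and it rose by 0.43 (SE 0.089, limma adjusted p = 0.00533). All 4 DSC2 probe sets had positive differences, and 2 of them passed by themselves. The mean over those 4 did not pass as the gene's value (0.34, limma adjusted p = 0.0572).

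**Figure D3:**
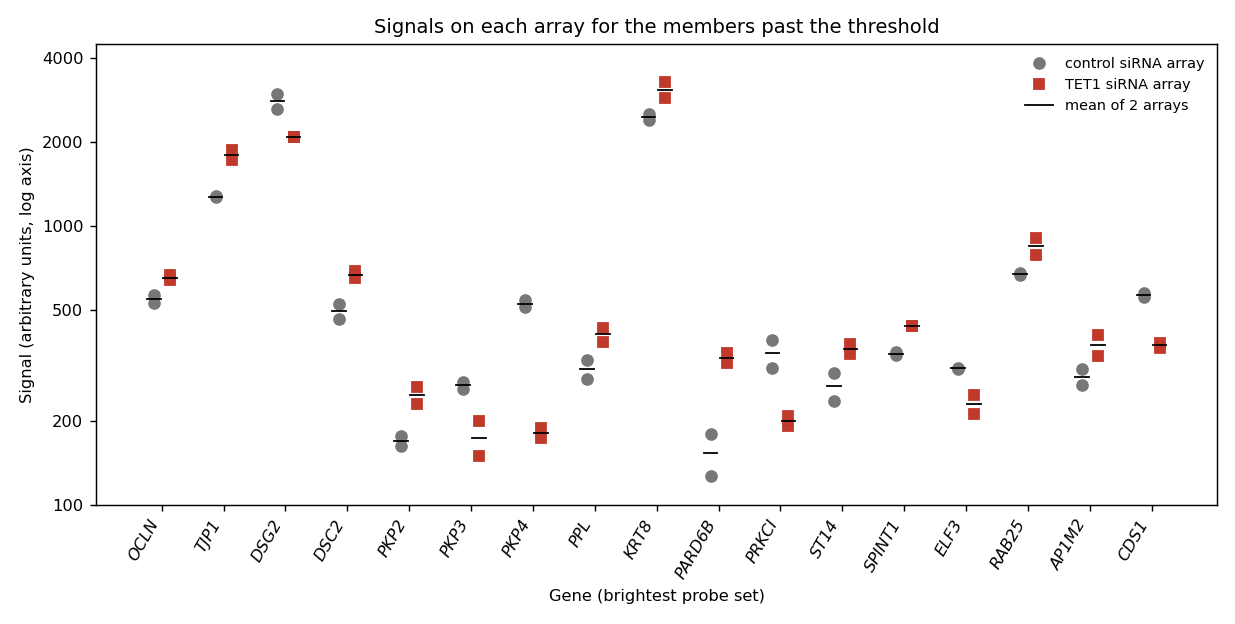
Signals (arbitrary units, log axis) of the 17 members past the threshold on each control siRNA array (grey circles) and TET1 siRNA array (red squares), with the mean of each pair as a black line. The pairs do not overlap in any of the 17, and the gap is widest for PKP4, at 526 against 180.8; signals of different genes are not comparable as amounts.

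The plakin genes tie these contacts to keratin. DSP encodes desmoplakin and was read at 3339.5 and 3667.8 with control siRNA, against 3084.6 and 3215.2 with TET1 siRNA. The groups did not overlap, but the difference of -0.15 (SE 0.067, limma adjusted p = 0.136) did not pass. PPL (periplakin) read 329.9 and 283.1 against 384.4 and 431.8. It rose by 0.40 (SE 0.11, limma adjusted p = 0.0203), with both TET1 siRNA arrays higher, but not without control siRNA replicate 2 (adjusted p = 0.134) or TET1 siRNA replicate 2 (0.147). EVPL (envoplakin), whose product pairs with periplakin in the cornified envelope, was dim and overlapped between groups (34.9 and 38.3 against 33.2 and 36.1).

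Among keratin genes, 1 of 5 tested rose (20%, against 11.2% of all genes tested), none fell and 4 did not pass. KRT8 and KRT18 encode the partner keratins of simple epithelia. KRT8 read 2517.5 and 2401.9 with control siRNA, against 2889.5 and 3279 with TET1 siRNA. Both TET1 siRNA arrays were higher, and it rose by 0.32 (SE 0.073, limma adjusted p = 0.00887), though not without TET1 siRNA replicate 2 (0.23, adjusted p = 0.115). KRT18 read 6216 and 7119.4 against 7285 and 7561.4, without overlap but not past the threshold (log2 difference 0.16, SE 0.070, limma adjusted p = 0.137). KRT18 passed with quantile normalization (0.18, adjusted p = 0.0496) or without control siRNA replicate 2 (0.26, 0.0211), and was 0.06 without control siRNA replicate 1. KRT19, the gene of another type I keratin of simple epithelia, read 4929.1 and 4775.7 against 5645.5 and 5145.5 (log2 difference 0.15, SE 0.064, limma adjusted p = 0.12). KRT8 and KRT18 were each read by a single _x_at probe set, a type that can bind near-identical transcripts, and both have many processed pseudogenes, so their values are uncertain in that respect.

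KRT10, better known from differentiated epidermis, read 1540.4 and 1291.7 with control siRNA, against 1238.5 and 1066.7 with TET1 siRNA. The TET1 siRNA arrays were both lower, and the difference of -0.29 (SE 0.097, limma adjusted p = 0.0522) lay just beyond the threshold. Its other probe sets differed by -0.23 (limma adjusted p = 0.126) and -0.05 (0.807) by themselves, and all 3 are of the _x_at or _s_at type. KRT10 passed with quantile normalization (adjusted p = 0.0393), a pseudocount of 64 (0.0499) or an upper-quartile filter (0.0456). KRT10 did not pass with median centring (0.141), no filter (0.158) or the average of its probe sets (-0.19, 0.0996). It also passed without control siRNA replicate 2 (-0.42, adjusted p = 0.0209) or TET1 siRNA replicate 1 (-0.40, 0.038), and was -0.17 without control siRNA replicate 1 and -0.19 without TET1 siRNA replicate 2. KRT7 read 26.7 and 47.6 against 47.6 and 38.3 by its brightest probe set, and those groups touched. Another KRT7 probe set read 27.4 and 32.3 against 51 and 45.4, without overlap but not past the threshold (log2 difference 0.49, limma adjusted p = 0.107 by itself). KRT80 was below the filter and not tested, at 1.3 and 1.6 against 18.6 and 10.9. Both TET1 siRNA values were higher, but they lay near the array medians.

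Among polarity genes, 1 of 7 rose and 1 fell (14.3% each, against 11.2% and 10.6% of all genes tested), and 5 did not pass. The pair that changed encode binding partners. PARD6B encodes PAR6 beta, the adaptor that joins atypical protein kinase C to CDC42 and PAR3. It read 179.2 and 126.8 with control siRNA, against 322.6 and 350.6 with TET1 siRNA. Both TET1 siRNA arrays were well above both controls, 2.20-fold in the means, although the control arrays differed between themselves. The log2 difference was 1.08 (SE 0.14, limma adjusted p = 0.000334). Its other 2 probe sets rose too when tested by themselves (log2 differences 0.99, limma adjusted p = 0.0192, and 0.68, adjusted p = 0.00296).

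PRKCI encodes the atypical kinase PKC iota that PAR6 binds. It read 389.2 and 309.5 with control siRNA, against 208.6 and 191.9 with TET1 siRNA. Values with TET1 siRNA were lower, at 57.3% of the control mean, and its level fell by 0.75 (SE 0.12, limma adjusted p = 0.00121). A second PRKCI probe set also fell by itself (242.8 and 307.4 against 151.6 and 169.6, log2 difference -0.71, limma adjusted p = 0.00387), and the dimmest did not pass (-0.34, adjusted p = 0.281). PARD3, the gene of the PAR3 scaffold, read 133.9 and 159.5 against 162.3 and 143.2 by its brightest probe set, with overlap (log2 difference 0.05). Another of its 4 probe sets read 88.3 and 90 against 52.2 and 59.9 and fell by itself (-0.55, limma adjusted p = 0.0348), the only probe set to pass in a member that did not. No member had probe sets past the threshold in both directions.

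The remaining polarity genes did not pass. CRB3 encodes the Crumbs protein of simple epithelia and read 98.1 and 87 with control siRNA, against 118.4 and 123.3 with TET1 siRNA. Its groups did not overlap (log2 difference 0.34, SE 0.14, limma adjusted p = 0.107). LLGL2, of the basolateral Scribble module, read 142 and 161.4 against 195.4 and 183.1, again without overlap (0.29, limma adjusted p = 0.107). PATJ, a Crumbs complex scaffold gene, read 177.5 and 163.7 against 179.2 and 192.6, a difference of 0.11 (adjusted p = 0.548). SCRIB read 456 and 367.9 against 326 and 438.8 and overlapped (-0.11, limma adjusted p = 0.64).

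**Figure D4:**
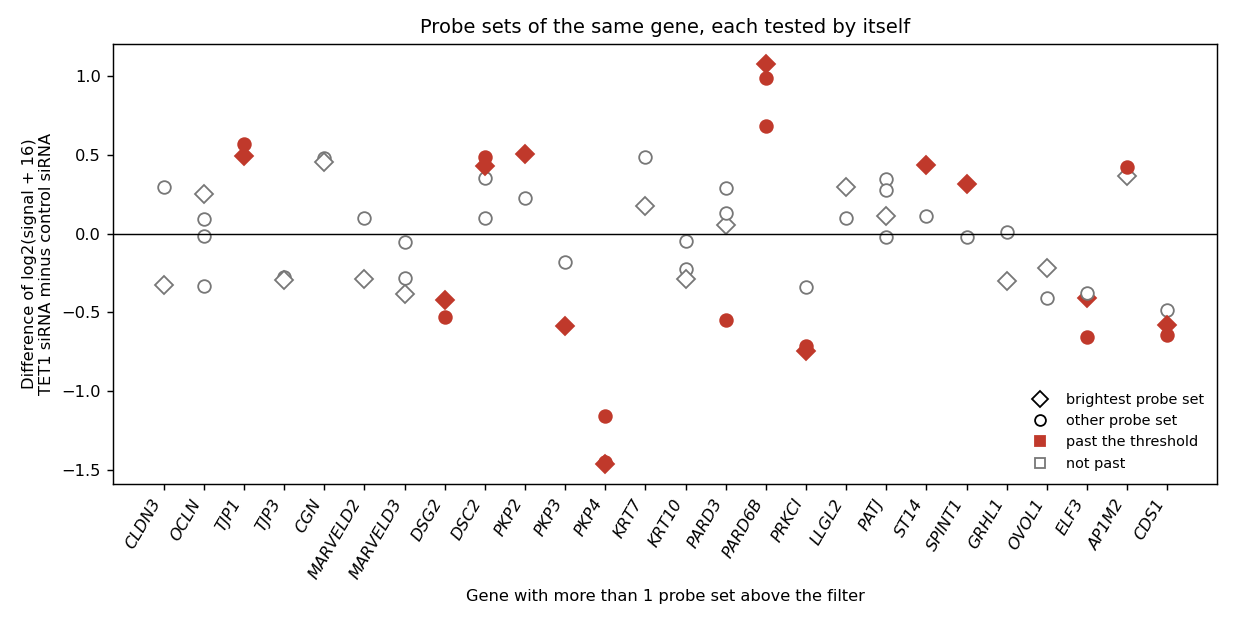
Log2 difference of each single-tested probe set for the 26 members with more than 1 above the filter; diamonds are the brightest probe set of a gene, circles the others, and red symbols passed the threshold. All tested probe sets of a gene have the same sign in 19 of the 26, and every probe set shown passes for TJP1, DSG2, PKP4 (-1.46 to -1.16) and PARD6B (0.68 to 1.08).

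When the 84 member probe sets bright enough were tested singly, 14 rose (7.76% of all 27306 probe sets did) and 13 fell (8.31% did), and 57 did not pass. In 7 of the 26 members with more than 1, signs were mixed: CLDN3, OCLN, MARVELD2, PARD3, PATJ, SPINT1 and GRHL1. OCLN and AP1M2, called by gene, did not pass by the same probe set at this level, where more tests are adjusted for.

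The genes of membrane-anchored proteolysis had positive differences in all 3 members, and 2 of them rose (66.7%, against 11.2% of all genes tested). ST14 encodes matriptase, a serine protease of the epithelial surface, and read 296.8 and 234.9 with control siRNA, against 348.4 and 377.6 with TET1 siRNA. It rose by 0.43 (SE 0.12, limma adjusted p = 0.0213), with groups that did not overlap. SPINT1 encodes HAI-1, its Kunitz-type inhibitor, and read 354.1 and 343.2 against 437.5 and 436.4. Replicates were close on both sides, and it rose by 0.31 (SE 0.088, limma adjusted p = 0.026). SPINT2, the gene of the related inhibitor HAI-2, read 1460.1 and 1517.6 against 1753.2 and 1656.1 without passing (0.19, SE 0.069, limma adjusted p = 0.0675). SPINT1 lost its call with any array left out (adjusted p 0.0606 to 0.107), and ST14 did without control siRNA replicate 2 (0.151), TET1 siRNA replicate 1 (0.05) or TET1 siRNA replicate 2 (0.124). Averaged over all probe sets of the gene, neither passed (log2 difference 0.09 for ST14 and 0.14 for SPINT1).

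Of 5 epithelial regulators tested, 1 fell (20%, against 10.6% of all genes tested) and none rose. ELF3 encodes an ETS factor of differentiating epithelium and read 310.6 and 306.7 with control siRNA, against 247.7 and 211.4 with TET1 siRNA. Both TET1 siRNA arrays were lower, and its level fell by 0.41 (SE 0.11, limma adjusted p = 0.0194). A second ELF3 probe set fell by itself (-0.65, limma adjusted p = 0.0416), and the remaining tested one did not pass (-0.38, adjusted p = 0.238). The ELF3 call ended without control siRNA replicate 1 (adjusted p = 0.0732), control siRNA replicate 2 (0.0689) or TET1 siRNA replicate 2 (0.148).

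GRHL1 and GRHL2 encode Grainyhead-like factors that activate junction genes. GRHL1 read 289.9 and 302 with control siRNA, against 233.8 and 240.8 with TET1 siRNA. Its groups were tight and did not overlap, and the difference of -0.30 (SE 0.099, limma adjusted p = 0.0507) lay just beyond the threshold, which it passed with an upper-quartile filter (adjusted p = 0.0364). GRHL2 read 202.6 and 173.4 against 195.7 and 213 and overlapped (0.11, limma adjusted p = 0.56). OVOL1, one of the zinc finger repressors that hold back mesenchymal genes, read 237.7 and 254 against 199.6 and 218.8 (-0.22, limma adjusted p = 0.182). OVOL2 was dim, at 12.9 and 21.6 against 30.2 and 29.8 (0.48, SE 0.23, adjusted p = 0.175).

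All 3 genes of polarised traffic and lipid synthesis passed, against 21.9% of all genes tested. RAB25 encodes a RAB11-family GTPase of apical recycling, and read 675.8 and 667.2 with control siRNA, against 907.4 and 784.8 with TET1 siRNA. AP1M2, for the epithelial AP-1B subunit that sorts proteins to the basolateral membrane, read 306.3 and 268.3 against 342.9 and 406.8. Both rose without overlap, RAB25 by 0.32 (SE 0.087, limma adjusted p = 0.0207) and AP1M2 by 0.36 (SE 0.11, limma adjusted p = 0.0375). CDS1, which encodes a CDP-diacylglycerol synthase of phosphatidylinositol synthesis, read 573 and 555.4 against 379.8 and 365.6. Replicates lay close together and its level fell by 0.58 (SE 0.085, limma adjusted p = 0.000687), as did a second probe set by itself (200.1 and 216 against 135.5 and 119.3, log2 difference -0.65, limma adjusted p = 0.00469). RAB25 did not pass without control siRNA replicate 1 (adjusted p = 0.0613), control siRNA replicate 2 (0.0796) or TET1 siRNA replicate 1 (0.189), and AP1M2 did not without control siRNA replicate 2 (0.197) or TET1 siRNA replicate 2 (0.263). Taking the average over its probe sets as the gene's value, CDS1 had a log2 difference of -0.31 and did not pass (limma adjusted p = 0.0649).

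Other genes of the same structures gave the setting, beside 21.9% of all genes tested that passed (11.2% rose and 10.6% fell). Of these lists, 23.1% of tight junction genes and 23.5% of polarity genes passed, near that share. The desmosome (33.3%), keratin (50%) and regulator and cargo (63.2%) lists lay above it, the desmosome and keratin lists with only 3 and 4 genes tested. Of 13 other tight junction genes tested, 3 fell and none rose (median log2 difference 0.02): CLDND1, a claudin-domain gene (4904.5 and 4806.9 against 2138.4 and 1892, log2 difference -1.26), the Crumbs complex scaffold gene PALS1 (-0.56) and SYMPK (-0.54). Of 3 other desmosome genes tested 1 fell, JUP (plakoglobin), from 644.3 and 590 to 416.9 and 408.1 (-0.56, SE 0.086, limma adjusted p = 0.000896). Of 4 other keratin genes tested 2 fell, KRT23 (-0.63) and KRT15 (-0.48), with a median of -0.24.

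Of 17 other polarity genes tested, 1 rose, the small GTPase gene CDC42 (0.28), and 3 fell: LIN7A (-0.82), the RAC exchange factor gene TIAM1 (-0.49) and LLGL1 (-0.39), with a median of -0.0061. Among 19 other epithelial regulators and cargo genes 6 rose and 6 fell (median 0.06). The largest were CDH1, the E-cadherin gene (925.1 and 1059 against 474.8 and 394, -1.16), SH3YL1 (0.75), GRHL3 (-0.75) and AP1S3 (-0.60). The members changed beside a fall of CDH1 and of the desmosome gene JUP, while EPCAM did not pass (0.15, limma adjusted p = 0.111). In bulk RNA, fewer cells that express a gene and less RNA of it per cell cannot be told apart, and transcript levels give no measure of junction proteins or of barrier function.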

How the data were processed

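Total RNA from 4 HCT116 samples was hybridised to Affymetrix arrays, 1 per sample, as biological duplicates per the series' design text. The authors deposited 1 linear signal intensity per probe set (54675), with no probe-level data or detection calls used here. Per the labels, cDNA was primed with oligo(dT), so signals report mainly 3′ ends. No software or settings for the values are named in the labels; the 2% trimmed mean is the same on each array, so the deposited signals were scaled per array and values show changes relative to all probe sets. The number of arrays limits the precision.

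Names came from the platform annotation: 41091 probe sets had 1 symbol, 1801 several and 11721 none, after 62 control probe sets were left out. Gene IDs of 41037 matched RefSeq (GRCh38.p14, used for names). Probe sets with several symbols were not named. For each gene the brightest probe set on average was used, and the gene was kept where the mean of log2(signal + 16) was above the median of non-control probe sets. limma 3.58.1 in R 4.3.3 (lmFit, eBayes with trend, group only, two-sided) was fitted across all 12389 genes, and separately across all 27306 probe sets, with Benjamini-Hochberg adjustment at 0.05.

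The members, the other gene lists, the cell type markers and the tests were chosen with earlier results of these data known. Every member is named; of the other lists, up to 4 genes past the threshold are named by size of change. EPCAM and individual cell markers were added outside that rule. Promoter sequences are from a table of RefSeq starts (GRCh38.p14), in which 26 of the 46 members were matched. No replicate pairing is stated beyond the numbers in the labels. Alternatives covered normalization, pseudocount, variance model, filter, probe set choice, fold threshold, replicate block and each array left out.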

Additional observations from a re-analysis of the deposited data

How the results depend on the processing

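Counts of genes that rose (11) and fell (6) stayed within 1.5-fold under quantile or median centring, a pseudocount of 1 or 64 and an upper-quartile filter. Genes that rose numbered 1 without the variance trend, 0 without moderation, 5 without a filter, 1 with a 1.5-fold minimum and 6 when probe sets were averaged, and 5 to 9 with an array left out; genes that fell numbered 3, 0 and 3 without trend, without moderation and with the fold minimum, and 4 to 7 with an array left out. Probe sets that rose (14) numbered 0, 0, 5, 3 and 9 without trend, without moderation, without a filter, with the fold minimum and without _x_at and _s_at types, and 5 to 10 with an array left out; those that fell (13) numbered 3, 0, 8 and 6 without trend, without moderation, with the fold minimum and without those types, and 10 to 12. Differences changed sign when probe sets were averaged for OCLN (-0.0002) and PARD3 (-0.019), and with an array left out for CLDN1 (-0.46 to 0.004, positive without TET1 siRNA replicate 2), KRT7 (-0.11 to 0.46, negative without control siRNA replicate 1), PARD3 (-0.059 to 0.17, negative without control siRNA replicate 1 or, at -0.027, TET1 siRNA replicate 1) and SCRIB (-0.32 to 0.095, positive without TET1 siRNA replicate 1 or, at 0.039, control siRNA replicate 1); the cause was not tested. PKP4, PARD6B and PRKCI passed in all 14 alternatives that kept moderation and the call rule. Same-numbered arrays did not deviate together (correlation across genes 0.006); with the replicate number as a replicate block, 12 genes rose and 7 fell, CLDN7 (adjusted p = 0.0486) and KRT10 (0.0117) being added, and 13 and 14 probe sets. With 2 arrays a group, small differences of dim genes were not measurable.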

Other observations

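The 13 member probe sets below the filter, left out of every test, had no call. Of 2 probe sets annotated to a member together with other genes, 1 was above the filter and 0 passed.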
